A study of Daphnia magna with 15 samples.

Results

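Whole water fleas (*Daphnia magna*) raised on the flagellated alga *Cryptomonas* (CRY) were compared with animals raised on the cyanobacterium *Synechococcus elongatus* without added eicosapentaenoic acid (CY). The treatment labels define the comparison, which takes in 6 of the 15 RNA-seq libraries of the series, 3 for CRY and 3 for CY, and all 26646 genes of the files, of which 14164 had enough counts to be tested. Eicosapentaenoic acid (EPA) is a long-chain polyunsaturated fatty acid that *Cryptomonas* contains by nature, and the labels present CRY as the natural positive control for EPA in the diet. The other groups, with 3 libraries each, were fed *S. elongatus* with EPA (CY + EPA), the green alga *Acutodesmus obliquus* with EPA (GA + EPA) or *A. obliquus* without EPA (GA, which by the study's methods received empty control liposomes), and are used here only for levels set side by side. All animals of all groups were parthenogenetic females of 1 clone, P132.85, whose mothers had been kept on *A. obliquus*. They were held at 15 °C on their diet from birth until the first clutch of eggs lay in the brood pouch. Each library is RNA from a pool of whole animals, 3 per pool by the sample labels and 5 per pool by the protocol. The study's methods describe replicate vessels for each diet, but the labels do not tie the pools to them, so p-values measure the spread between these pools, which may be technical. The study's methods state that the CY diets also received alpha linoleic acid and cholesterol, and CRY is not among the food treatments they describe. Whether CRY animals received liposomes, alpha linoleic acid or cholesterol is not given in the sources used here. CRY and CY animals differed in the food organism and in EPA, and may have differed in these additions, and the parts of each cannot be told apart.

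*Daphnia* filter particles from the water and digest them in a simple tube of a gut, where trypsins and chymotrypsins do most of the protein breakdown. The gut wall secretes the peritrophic matrix, a sleeve of chitin and chitin-binding proteins that surrounds the food and keeps it off the epithelium. Cyanobacteria are known as poor food for *Daphnia* because they lack sterols, which arthropods cannot make, and long-chain polyunsaturated fatty acids. Cryptophytes supply both. Adult females load their eggs with yolk made from vitellogenins, large lipid-carrying proteins, and moult around the release of each brood.

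Genes of chitin and of the peritrophic matrix tended to be higher in CRY than in CY animals, as did many genes that handle sterols and sphingolipids and single digestive enzymes, such as an alpha-amylase and carboxypeptidases, though not the serine proteases as a group. The gut-type chitinase gene Cht8 (KZS07823.1) had 1211, 1127 and 1231 CPM in CRY pools, against 672, 732 and 615 CPM in CY pools. Several collagens and other proteins of the basement membrane were lower in CRY, while some collagens were higher. Many unnamed genes whose products resemble the lipid-binding end of vitellogenin were lower in CRY, 17 of 35 at an unadjusted p of 0.05, with 1 higher. The summed level of the genes named vitellogenin fused with superoxide dismutase overlapped between the diets. These differences were mostly within 2-fold, and how many of them passed a test depended on the tool and on 1 library.

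That library is CY 1. Over 13007 genes its log2 values lay nearest to CRY 1 (Pearson r = 0.9891), and its mean r was 0.9831 with the CRY libraries, against 0.9572 with the other CY libraries. CY 2 and CY 3 had an r of 0.9805 with each other. On the first principal component, which held 57.9% of the variance of the 6 libraries, CRY lay at -24.1, -43.4 and -10.5, and CY lay at -24.0, 56.9 and 45.1. CY 1 thus sat among the CRY libraries along this axis, and on the side of CY 3 along the second, which held 16.1%. These correlations describe libraries that share all their genes and carry no test. The counts of the main gene groups are therefore also given without CY 1, which leaves 3 CRY and 2 CY libraries. Depth was alike, with 19054391, 19749270 and 18218136 expected counts in CRY, against 20286810, 18062681 and 19245237 in CY (exact two-sided permutation p = 0.8, where 3 against 3 cannot go below 0.1). Enough counts to be tested were found for 21 of 21 muscle, 17 of 25 photoreceptor, 23 of 30 neuron and 46 of 70 embryo and germ line markers, tissues that whole animals hold.

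**Figure D1:**
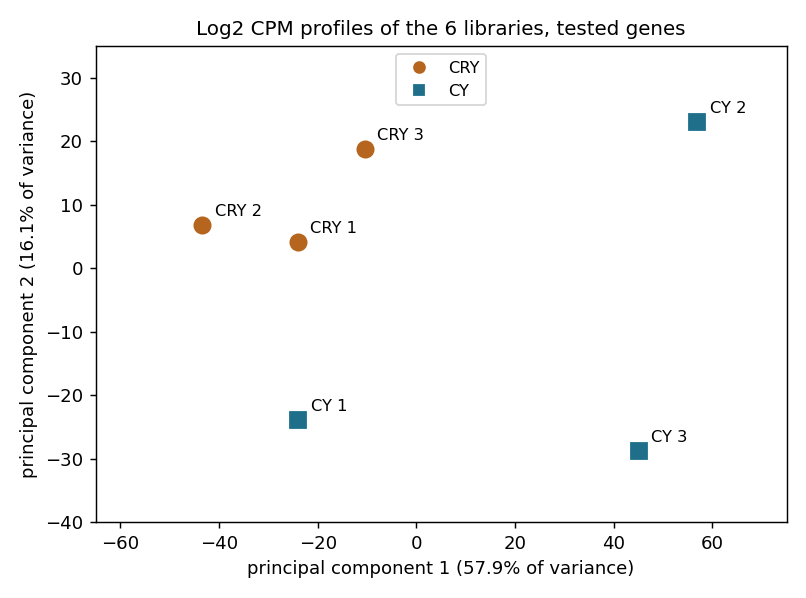
Scores of the 3 CRY and 3 CY libraries on the first and second principal components of log2 normalised counts (axes give the share of variance, 57.9% and 16.1%). Each point is a library. CY 1 lies at -24.0 on the horizontal axis, level with CRY 1 at -24.1, and far from CY 2 at 56.9 and CY 3 at 45.1.

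With edgeR's quasi-likelihood test no gene of 14164 was called at an adjusted p of 0.01 (0%) nor at 0.05 (0%), and the smallest adjusted p was 0.156. At an unadjusted p of 0.05 edgeR had 2204 genes (15.6%), of which 1120 were higher in CRY (7.91%) and 1084 lower (7.65%), where 708 would be expected with no differences at all. At an unadjusted p of 0.01 it had 523 (3.69%), with 318 higher (2.25%) and 205 lower (1.45%), where 142 would be expected. DESeq2, run on the same counts, called 161 of 11383 genes at an adjusted p of 0.01 (1.41%), 127 higher in CRY (1.12%) and 34 lower (0.299%). All 161 had an unadjusted edgeR p of 0.0146 or less. In 159 of them every CRY library lay on one side of every CY library, as in 1674 of all tested genes on the higher side (11.8%) and 1376 on the lower side (9.71%). Limma on log2(FPKM + 0.1) called 0, with 2000 genes at an unadjusted p of 0.05. Without CY 1, edgeR called 100 genes at an adjusted p of 0.01 (0.691%), 71 higher (0.491%) and 29 lower (0.2%), and 1186 at 0.05 (8.19%). At an unadjusted p of 0.05, 2061 genes were then higher (14.2%) and 1904 lower (13.2%). DESeq2 without CY 1 called 1300 (9.35%), 702 higher (5.05%) and 598 lower (4.3%). CY 1 lay nearer to the CRY mean than to that of the other CY libraries in 8646 of all 14164 tested genes. It did so in 89 of edgeR's 100 genes and in 24 of the 161 genes that DESeq2 called with all libraries. The first set was chosen without CY 1 and the second with it as a CY library, so these counts follow in part from the choice. Of the 161 genes, 159 were also called by DESeq2 without CY 1. The median log2 fold change over all tested genes was 0.0035.

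Below, levels are normalised counts scaled to a common library size (CPM), always in the order of replicates 1, 2 and 3, and fold changes are edgeR's log2 ratios of CRY over CY with their standard errors. No edgeR adjusted p is below 0.156, so "called" refers to DESeq2 at an adjusted p of 0.01 unless edgeR is named. Of the tested genes, 3131 have expected counts that are not whole in some library because reads were shared with similar genes, and such genes are marked as sharing reads. Counts at an unadjusted p of 0.05 stand beside 7.91% of all tested genes higher and 7.65% lower. Without CY 1 these shares are 14.2% and 13.2%. Counts of DESeq2's calls stand beside 1.12% higher and 0.299% lower of the genes it gave an adjusted p. Without CY 1 those shares are 5.05% and 4.3%.

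Chitin genes were higher in CRY as a group. Of 41 tested genes of chitin synthesis, turnover and binding, 20 were higher at an unadjusted p of 0.05 (48.8%, against 7.91% of all tested genes). A further 6 were lower (14.6%, against 7.65%), so both shares were above those of all tested genes. DESeq2 called 6 higher and 0 lower, and the median log2 fold change was 0.56 (0.54 without CY 1, where 22 were higher and 7 lower). Summed over the group, CRY libraries had 4946, 4984 and 4734 CPM, against 3424, 4120.2 and 2608 CPM in CY, and the diets did not overlap. More cells of the tissues that make chitin and more RNA per cell cannot be told apart in whole animals, here or for any tissue below. Cht8 (KZS07823.1), a chitinase with the levels given above, was higher by 0.82 ± 0.10 (DESeq2 adjusted p = 3.87e-09). Its CRY libraries lay within a narrow band and well above all CY libraries, CY 1 included. Chitin synthase makes the polymer itself, and the gene KZS18078.1, annotated as chitin synthase 2, had 119.9, 112 and 103 CPM in CRY pools, against 62.4, 62.1 and 50.3 CPM in CY pools, a log2 difference of 0.94 ± 0.12 (DESeq2 adjusted p = 1.56e-07, shares reads). Chitin deacetylase, which strips acetyl groups from chitin, was higher for KZS21268.1 with 662, 602 and 627 CPM in CRY pools, against 374, 355 and 234 CPM in CY pools (0.97 ± 0.18, DESeq2 adjusted p = 0.00018). The gene annotated as chitinase Idgf1-like protein, KZS17387.1, had 752, 751 and 705 CPM in CRY pools, against 459.8, 444 and 231 CPM in CY pools (0.96 ± 0.25, DESeq2 adjusted p = 0.0094, shares reads).

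Proteins of the peritrophic matrix stood in a run along the genome. The 7 consecutive genes from KZS21557.1 to KZS21563.1, spread over 27.2 kb of 1 scaffold, are all annotated as peritrophic matrix or obstructor proteins, which bind chitin, and all 7 had log2 fold changes above 0, from 0.56 to 1.14. KZS21560.1 in this run had 55.8, 49.6 and 55.1 CPM in CRY pools, against 29.4, 28.6 and 14.8 CPM in CY pools (1.14 ± 0.25, DESeq2 adjusted p = 0.0018). At its end, KZS21563.1 had 33.1, 30.9 and 32.5 CPM in CRY pools, against 18.7, 17.7 and 13.6 CPM in CY pools (0.95 ± 0.13, DESeq2 adjusted p = 1.70e-05). In both genes the lowest CRY library was above the highest CY library. A second run of 8 genes over 19.5 kb, from KZS15598.1 to KZS15605.1, had 7 tested genes, again all above 0, from 0.16 to 1.15. The highest of these, the peritrophic matrix gene KZS15603.1, had 269, 245 and 271 CPM in CRY pools, against 165, 117 and 70.7 CPM in CY pools (1.15 ± 0.28, DESeq2 adjusted p = 0.0032). Here CY 1 was the highest CY library, and without it the log2 difference was 1.48.

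The annotation also assigns genes to orthologous groups of arthropods (artNOG), which add genes that carry no product name. Of 47 tested genes with the peritrophin-A chitin-binding group, 17 were higher and 4 lower at an unadjusted p of 0.05 (16 and 8 without CY 1). Of 18 with Glyco_18, the fold of chitinases and chitinase-like proteins, 6 were higher and 2 lower (7 and 3 without CY 1). These groups were picked after their values had been seen and are a description. Among uncharacterized genes with the Glyco_18 fold, KZS00530.1 had 55.5, 39.1 and 42.6 CPM in CRY pools, against 26.4, 15.8 and 13.5 CPM in CY pools (1.30 ± 0.27, DESeq2 adjusted p = 0.00058, shares reads). KZR97235.1 had 603, 528 and 672 CPM in CRY pools, against 385, 236 and 182 CPM in CY pools (1.17 ± 0.27, DESeq2 adjusted p = 0.0018, shares reads). KZS02553.1 had 388, 312 and 400.2 CPM in CRY pools, against 248, 159 and 117 CPM in CY pools (1.07 ± 0.27, DESeq2 adjusted p = 0.0054, shares reads). All of them were highest in CRY, intermediate in CY 1 and lowest in CY 2 and CY 3.

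Not every chitin gene followed. A second gene annotated as chitin synthase 2, KZS08010.1, had 71.7, 67.2 and 82.6 CPM in CRY pools, against 72.3, 186 and 149 CPM in CY pools (-0.88 ± 0.32, DESeq2 adjusted p = 0.069), so that CY 1 lay with CRY. Chitin deacetylase 5 (KZS21294.1) had 89.3, 68.2 and 91.1 CPM in CRY pools, against 95.8, 180.3 and 143 CPM in CY pools (-0.75 ± 0.24, DESeq2 adjusted p = 0.045). KZS08010.1 was lower in CRY than in CY 2 and CY 3 but not than in CY 1, and KZS21294.1 was lower in CRY than in every CY library, with CY 1 close to CRY, whereas the copies named above were higher in CRY than in every CY library. Some high values rest wholly or mostly on 1 library. Endochitinase KZS04090.1 had 0.891, 46.9 and 0.707 CPM in CRY pools, against 0.983, 0.055 and 0.101 CPM in CY pools (shares reads), and the peritrophin-like cuticle gene KZS03017.1 had 32.3, 164 and 25.4 CPM in CRY pools, against 25.7, 3.79 and 6.28 CPM in CY pools. CRY 2 alone set the CRY mean of KZS04090.1. In KZS03017.1 CRY 2 was far above CRY 1 and CRY 3, which lay near CY 1 and above CY 2 and CY 3.

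Many single enzymes that break down carbohydrates were higher in CRY, though not their summed level. Of 51 tested genes, 12 were higher at an unadjusted p of 0.05 (23.5%, against 7.91% of all tested genes) and 0 lower. DESeq2 called 5 and 0, and the median log2 fold change was 0.22. Without CY 1 there were 19 higher and 7 lower, where 14.2% of all tested genes were higher and 13.2% lower, and the median was 0.17. Summed, the group had 5635, 5004 and 5236 CPM in CRY, against 3698, 6177 and 4346 CPM in CY, where CY 2 exceeded every CRY library. Alpha-amylase cuts starch, which cryptophytes store, and the gene KZS19963.1 (alpha-amylase 1) had 34.6, 37.0 and 43.5 CPM in CRY pools, against 16.5, 16.4 and 22.9 CPM in CY pools (1.04 ± 0.16, DESeq2 adjusted p = 4.79e-05). KZS21471.1, named alpha-amylase-related but with a coenzyme A ligase as its artNOG entry, had 92.9, 85.2 and 111 CPM in CRY pools, against 45.5, 44.7 and 63.0 CPM in CY pools (0.91 ± 0.17, DESeq2 adjusted p = 0.00051). Both separated the diets, while another gene named alpha-amylase 1, KZS16400.1, had 516, 434 and 532 CPM in CRY pools, against 304, 972 and 548 CPM in CY pools (-0.30 ± 0.38) and overlapped widely. KZS06182.1, by product name maltase A6, which splits maltose, but with sphingomyelin as its artNOG entry, had 72.5, 80.8 and 76.1 CPM in CRY pools, against 47.2, 46.4 and 29.4 CPM in CY pools (0.90 ± 0.18, DESeq2 adjusted p = 0.0017). Lysosomal alpha-glucosidase (KZR99685.1) had 90.5, 77.5 and 89.9 CPM in CRY pools, against 59.96, 41.5 and 37.3 CPM in CY pools (0.89 ± 0.18, DESeq2 adjusted p = 0.0023). Beta-galactosidase (KZS05123.1), which removes galactose from sugars, had 884, 798 and 801 CPM in CRY pools, against 531, 581 and 434 CPM in CY pools (0.68 ± 0.13, DESeq2 adjusted p = 0.00069, shares reads). In each of these 3 genes every CRY library was above every CY library.

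Protein digestion was divided. Among the serine proteases, which hold the trypsins and chymotrypsins, 3 of 49 tested genes were higher and 3 lower at an unadjusted p of 0.05, below the shares of all tested genes, and DESeq2 called 1. Without CY 1 there were 14 higher and 9 lower of these 49 genes, where 14.2% of all tested genes were higher and 13.2% lower. DESeq2 then called 10 higher and 4 lower, where it called 5.05% of all genes higher and 4.3% lower. The counts of this list thus rest on CY 1. The gene called with all libraries, KZS16604.1, is annotated as a chymotrypsin-like protease and had 25.2, 23.5 and 26.1 CPM in CRY pools, against 13.3, 16.2 and 11.4 CPM in CY pools (0.87 ± 0.15, DESeq2 adjusted p = 0.00034). The trypsin gene KZS15684.1 had 3413, 2905 and 2923 CPM in CRY pools, against 2259.9, 2557 and 1263 CPM in CY pools (0.60 ± 0.25, DESeq2 adjusted p = 0.171, shares reads), and its diets did not overlap, though CY 3 lay far below the other CY libraries. Of 87 tested peptidases of other kinds, 13 were higher and 3 lower, DESeq2 called 3 higher and 0 lower, and the median was 0.21 (16 higher and 9 lower without CY 1). Aminopeptidase N clips residues off the front of peptides at the gut surface, and KZS18387.1 had 860.1, 762 and 831 CPM in CRY pools, against 488, 410.3 and 406 CPM in CY pools (0.91 ± 0.11, DESeq2 adjusted p = 7.41e-09, shares reads). The digestive carboxypeptidase genes, whose products trim the other end, were higher too. Carboxypeptidase A1 (KZS04930.1) had 40.8, 37.2 and 40.3 CPM in CRY pools, against 26.2, 25.3 and 18.1 CPM in CY pools (0.76 ± 0.15, DESeq2 adjusted p = 0.0032, shares reads). Carboxypeptidase A5 (KZS18874.1) had 31.1, 26.4 and 29.7 CPM in CRY pools, against 18.7, 20.4 and 14.2 CPM in CY pools (0.71 ± 0.15, DESeq2 adjusted p = 0.01). The 38 tested lipases had a median of 0.24, with 5 higher and 0 lower at an unadjusted p of 0.05 and 0 called by DESeq2. Their sums were 665, 634 and 649 CPM in CRY, against 508, 572 and 408 CPM in CY, without overlap.

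**Figure D2:**
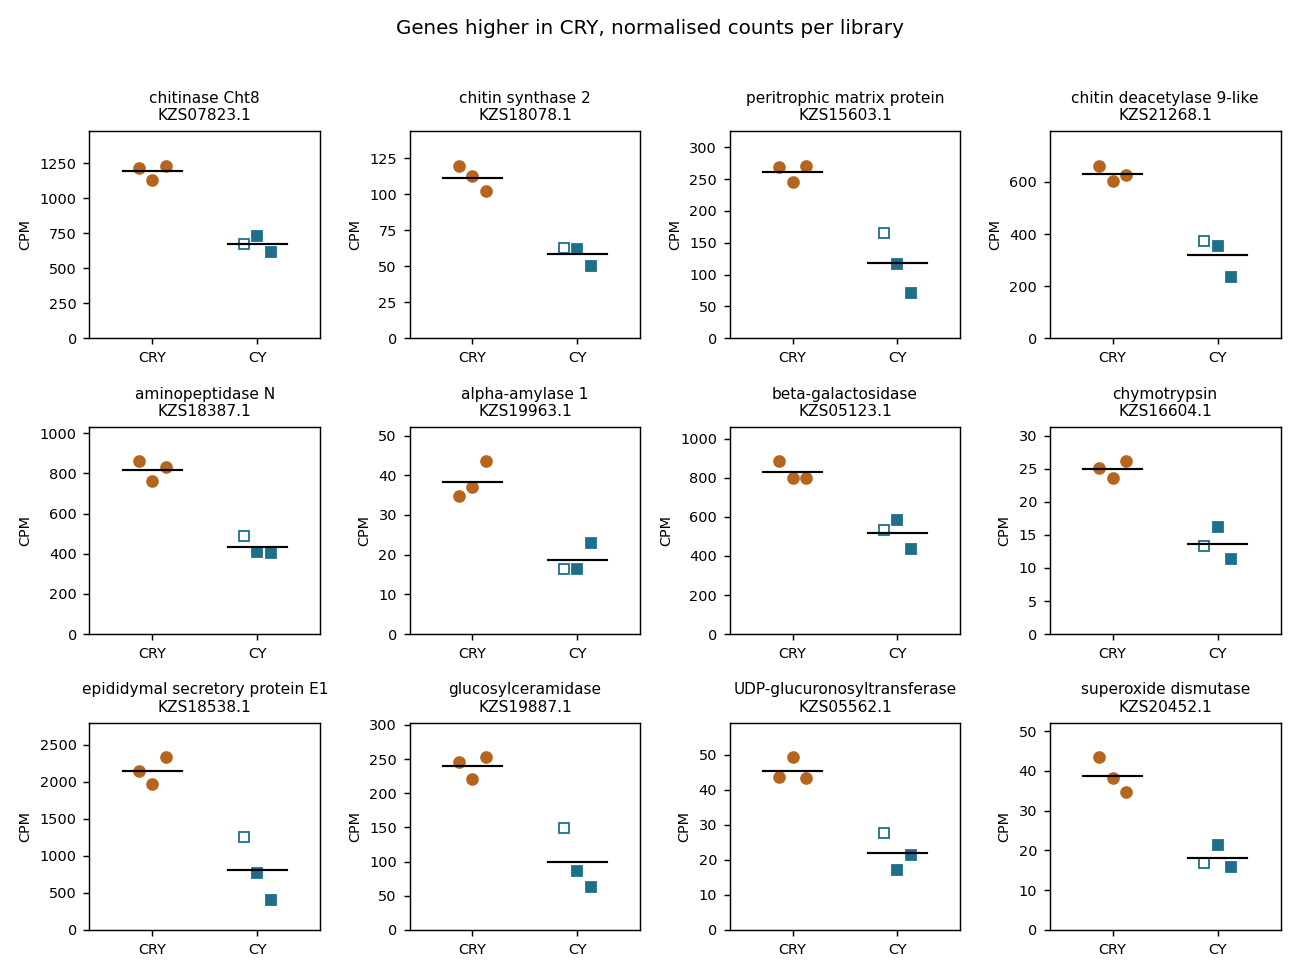
Normalised counts (CPM, vertical axis from 0) of genes with higher levels in CRY, 1 panel per gene, with a point for each of 3 CRY and 3 CY libraries, CY 1 drawn as an open square and a bar at the mean of each diet. In Cht8 the CRY points lie between 1127 and 1231 CPM and the CY points between 615 and 732 CPM. In other genes, such as KZS18538.1, CY 1 lies between CRY and the other CY libraries.

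Genes for lipid carriers were among the most abundant of those higher in CRY. KZS18538.1, annotated as epididymal secretory protein E1 with an ML domain (the fold of the sterol carrier NPC2), had 2145, 1967 and 2332 CPM in CRY pools, against 1257, 763 and 401 CPM in CY pools (1.41 ± 0.37, DESeq2 adjusted p = 0.0032). CY 1 was intermediate and CY 3 lowest. A few genes away on the same scaffold, KZS18535.1, a putative Niemann-Pick type C protein of the same fold, had 239, 229 and 283 CPM in CRY pools, against 136, 31.3 and 17.8 CPM in CY pools (2.02 ± 0.70). Its diets did not overlap, but CY 1 lay far above CY 2 and CY 3, and DESeq2 did not call it (adjusted p = 0.177). The 3 tested genes with the ML domain summed to 2398, 2211 and 2630.2 CPM in CRY, against 1405, 816 and 428 CPM in CY.

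Of 58 tested genes of sterol and sphingolipid handling, 17 were higher (29.3%) and 3 lower at an unadjusted p of 0.05, DESeq2 called 3 higher and 0 lower, and the median log2 fold change was 0.19 (0.25 without CY 1, with 26 higher and 7 lower). Glucosylceramidase, which removes glucose from a membrane sphingolipid in lysosomes, was the highest of those called. Its gene KZS19887.1 had 245, 221 and 253 CPM in CRY pools, against 149.8, 86.6 and 62.8 CPM in CY pools (1.26 ± 0.30, DESeq2 adjusted p = 0.0018, shares reads), with CY 1 again between the groups. Sphingosine-1-phosphate phosphatase 1 (KZS03856.1), which ends the signal of a sphingolipid messenger, had 74.1, 65.2 and 64.5 CPM in CRY pools, against 46.3, 36.5 and 31.7 CPM in CY pools (0.83 ± 0.15, DESeq2 adjusted p = 0.00076, shares reads). Acid sphingomyelinase-like KZS08591.1 had 152, 127 and 133 CPM in CRY pools, against 80.0, 95.5 and 57.5 CPM in CY pools (0.82 ± 0.19, DESeq2 adjusted p = 0.0055). In each of these the diets did not overlap. Outside the list, the glycolipid transport gene KZS16921.1 had 6071, 5106 and 6399 CPM in CRY pools, against 3569, 3546 and 2055 CPM in CY pools (0.94 ± 0.23, DESeq2 adjusted p = 0.0043). Genes of sterol conversion were higher without being called. Neverland (KZS14264.1), which in insects turns cholesterol into the first precursor of moulting hormone, had 43.2, 39.8 and 45.9 CPM in CRY pools, against 23.0, 34.3 and 18.3 CPM in CY pools (0.77 ± 0.22, DESeq2 adjusted p = 0.038). Delta(24)-sterol reductase (KZS05093.1), which acts on the side chain of sterols, had 212, 182 and 206 CPM in CRY pools, against 148, 144 and 107 CPM in CY pools (0.59 ± 0.15, DESeq2 adjusted p = 0.021). Cholesterol was added to CY, and whether CRY received it is not given in the sources used here.

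Enzymes that modify foreign compounds leaned the same way. Of 44 tested conjugating enzymes, 10 were higher (22.7%, against 7.91% of all tested genes) and 0 lower at an unadjusted p of 0.05. Their median was 0.30 and 2 were called by DESeq2 (13 higher and 1 lower at that unadjusted p without CY 1). UDP-glucuronosyltransferase, which attaches a sugar acid to small molecules so that they can be excreted, is the product name of KZS05562.1, which had 43.5, 49.3 and 43.2 CPM in CRY pools, against 27.7, 17.2 and 21.3 CPM in CY pools (1.04 ± 0.17, DESeq2 adjusted p = 0.00014). Its artNOG entry names a zinc transporter, so its identity is uncertain. Sulfotransferase 1C2 (KZS16634.1), which adds sulfate, had 68.3, 61.5 and 73.5 CPM in CRY pools, against 50.3, 38.8 and 35.3 CPM in CY pools (0.71 ± 0.15, DESeq2 adjusted p = 0.0066). Of 28 tested cytochrome P450 genes, oxidases of hormones, fatty acids and food compounds, 5 were higher (17.9%) and 0 lower. DESeq2 called KZS14901.1, a putative P450 4d20, with 58.8, 44.6 and 59.9 CPM in CRY pools, against 26.3, 36.8 and 31.6 CPM in CY pools (0.79 ± 0.16, DESeq2 adjusted p = 0.0048). Of 39 antioxidant and iron storage genes, 8 were higher (20.5%) and 0 lower (9 and 0 without CY 1). The diets were separated in 13 of them, all higher (33.3%, against 11.8% of all tested genes). Iron is stored in ferritin, and the ferritin genes KZS12270.1 and KZS12271.1 lie side by side. KZS12271.1 had 677, 655 and 762 CPM in CRY pools, against 351, 573 and 434 CPM in CY pools (0.62 ± 0.18, DESeq2 adjusted p = 0.04). KZS12270.1 had 465, 446 and 513 CPM in CRY pools, against 267, 424 and 307 CPM in CY pools (0.51 ± 0.18, DESeq2 adjusted p = 0.111). The gene with the product name putative extracellular superoxide dismutase, KZS20452.1, had 43.5, 38.1 and 34.8 CPM in CRY pools, against 16.8, 21.4 and 15.8 CPM in CY pools (1.11 ± 0.15, DESeq2 adjusted p = 1.10e-06), but its artNOG entry is a sugar transporter.

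The gene with the smallest edgeR p of all was KZS12186.1, annotated as a calcium-activated chloride channel regulator, a secreted or membrane protein of epithelia in mammals. It had 195, 180.4 and 187 CPM in CRY pools, against 106, 91.3 and 86.9 CPM in CY pools, a log2 difference of 0.98 ± 0.10 (unadjusted p = 2.95e-05 in edgeR, DESeq2 adjusted p = 9.00e-11, shares reads). Lectins, which bind sugars, and other immune recognition genes had 7 of 24 higher (29.2%) and 2 lower (8.33%), with 2 called by DESeq2. The first of these is a C-type lectin, KZS12445.1, with 498, 446 and 555 CPM in CRY pools, against 298, 309.7 and 168 CPM in CY pools (0.95 ± 0.24, DESeq2 adjusted p = 0.006). The second is a galectin, KZS11645.1, a binder of galactose, with 132, 118 and 149 CPM in CRY pools, against 80.9, 90.9 and 59.1 CPM in CY pools (0.79 ± 0.17, DESeq2 adjusted p = 0.0048, shares reads). Both had CRY libraries above every CY library. Hemolectin is a clotting protein of the haemolymph in flies, and KZS04413.1, annotated with its short name Hml, had 3.83, 4.43 and 3.26 CPM in CRY pools, against 2.02, 1.26 and 1.42 CPM in CY pools (1.29 ± 0.25, DESeq2 adjusted p = 0.0089). Among regulators, hormone receptor 51 (KZS21999.1), a nuclear receptor, had 2.94, 4.94 and 4.57 CPM in CRY pools, against 1.35, 1.81 and 1.42 CPM in CY pools (1.44 ± 0.27, DESeq2 adjusted p = 0.0035, shares reads). The Krueppel factor-like zinc finger gene KZS05784.1 had 136, 129 and 142 CPM in CRY pools, against 75.9, 58.5 and 47.8 CPM in CY pools (1.16 ± 0.17, DESeq2 adjusted p = 1.17e-06, shares reads). KZS19005.1, a seizure 6-like protein with CUB domains, had 595, 575 and 668 CPM in CRY pools, against 364, 256 and 190.2 CPM in CY pools (1.18 ± 0.23, DESeq2 adjusted p = 0.00015). In these 3 genes also every CRY library lay above every CY library.

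ABC transporters of subfamily H, which in insects are linked to the lipid barrier of the cuticle, differed in both directions. KZS04917.1 had 7.13, 4.43 and 5.93 CPM in CRY pools, against 2.64, 2.58 and 2.03 CPM in CY pools (1.27 ± 0.24, DESeq2 adjusted p = 0.0029), and KZS11058.1 had 9.91, 9.67 and 12.9 CPM in CRY pools, against 13.2, 34.4 and 37.9 CPM in CY pools (-1.40 ± 0.38, DESeq2 adjusted p = 0.007). In the second of these CY 1 lay close to CRY 3. Other transporters were mixed, with 13 of 105 tested solute transporters higher (12.4%) and 6 lower (5.71%) and a median of 0.067. The organic anion carrier KZS21446.1 had 66.9, 54.0 and 64.3 CPM in CRY pools, against 38.7, 39.2 and 27.3 CPM in CY pools (0.81 ± 0.16, DESeq2 adjusted p = 0.0024, shares reads). Solute carrier family 12 member 8 (KZS19925.1) had 68.4, 64.3 and 58.7 CPM in CRY pools, against 45.7, 39.7 and 44.0 CPM in CY pools (0.56 ± 0.094, DESeq2 adjusted p = 0.0029).

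Genes with no product name made up 68 of the 161 called genes, and 5520 of all 14164 tested genes. The highest log2 fold change among these was that of KZS00491.1, with 63.7, 68.8 and 79.2 CPM in CRY pools, against 28.1, 19.2 and 15.4 CPM in CY pools (1.75 ± 0.22, DESeq2 adjusted p = 4.19e-10). KZS03440.1 had 5.56, 5.64 and 6.52 CPM in CRY pools, against 2.17, 1.70 and 1.57 CPM in CY pools (1.70 ± 0.20, DESeq2 adjusted p = 1.17e-06, shares reads). KZS14457.1 had 116, 136 and 103 CPM in CRY pools, against 63.4, 48.3 and 18.8 CPM in CY pools (1.44 ± 0.40, DESeq2 adjusted p = 0.006, shares reads). No function can be given for these from the annotation. KZS16579.1, whose artNOG entry is CLIP, a domain of secreted serine proteases, had 975, 967 and 1065 CPM in CRY pools, against 585, 504 and 342 CPM in CY pools (1.07 ± 0.19, DESeq2 adjusted p = 8.21e-05). On the lower side, KZS20392.1 had 0.734, 0.705 and 0.761 CPM in CRY pools, against 0.880, 5.39 and 6.28 CPM in CY pools (-2.50 ± 0.68, DESeq2 adjusted p = 0.0074, shares reads), where CY 1 lay close to CRY.

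Matrix proteins were lower in CRY. Of 18 tested extracellular matrix genes, 7 were lower (38.9%, against 7.65% of all tested genes) and 2 higher at an unadjusted p of 0.05, DESeq2 called 5 lower and 0 higher, and the median log2 fold change was -0.18 (-0.15 without CY 1, with 7 lower and 2 higher). Summed, they had 4019, 3776 and 3752 CPM in CRY, against 5073, 6158 and 6659 CPM in CY, without overlap. Basement membranes are sheets of type IV collagen, laminin and nidogen beneath epithelia and around muscle. Viking (KZS07033.1), in flies a chain of type IV collagen and by its name not in the list, had 381, 403 and 337 CPM in CRY pools, against 543, 569 and 657 CPM in CY pools (-0.66 ± 0.11, DESeq2 adjusted p = 0.00016). On the opposite strand 964 bases away lies KZS07034.1, a putative collagen, with 329, 338 and 303 CPM in CRY pools, against 488, 529 and 600.2 CPM in CY pools (-0.74 ± 0.11, DESeq2 adjusted p = 2.10e-06, shares reads). In both genes all 3 CRY libraries were below all CY libraries, CY 1 included. The genes of this pair lie head to head, as pairs of type IV collagen genes do in flies and mammals. Nidogen-2 (KZS19650.1), which links collagen and laminin, had 90.0, 91.6 and 84.8 CPM in CRY pools, against 122, 132 and 142 CPM in CY pools (-0.57 ± 0.090, DESeq2 adjusted p = 0.00012). Counted by artNOG entry, 29 collagen genes were tested, of which 5 were lower and 4 higher at an unadjusted p of 0.05 and 11 had a log2 fold change above 0, with a median of -0.10 and a highest value of 2.02, and DESeq2 called 4 lower and 0 higher. Other collagens that DESeq2 called lower had these levels. KZS07992.1 had 439.7, 389 and 433 CPM in CRY pools, against 587, 758 and 865 CPM in CY pools (-0.81 ± 0.15, DESeq2 adjusted p = 0.00034). KZS05104.1 had 1789, 1542 and 1804 CPM in CRY pools, against 2398, 3354 and 3415 CPM in CY pools (-0.84 ± 0.16, DESeq2 adjusted p = 0.00024). KZS21527.1 had 80.5, 73.4 and 76.8 CPM in CRY pools, against 99.6, 150.4 and 153 CPM in CY pools (-0.80 ± 0.17, DESeq2 adjusted p = 0.0023). In these 3 genes CY 1 was the lowest CY library and still above all CRY libraries. Laminin subunit beta-1 (KZS17228.1) had 267, 285 and 241 CPM in CRY pools, against 320.2, 317 and 342 CPM in CY pools (-0.30 ± 0.095, DESeq2 adjusted p = 0.092, shares reads).

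Muscle markers were lower as well, though DESeq2 called none of them. Of 21 tested genes, 10 were lower and 1 higher at an unadjusted p of 0.05, 17 had a log2 fold change below 0, and the median was -0.28 (-0.30 without CY 1, with 6 lower and 3 higher). Their sums were 5416, 5164 and 5033 CPM in CRY, against 6823, 5933 and 7471 CPM in CY, without overlap. Myosin heavy chain KZS11384.1, the motor of the contractile fibre, had 2001, 1899.8 and 1766 CPM in CRY pools, against 2882, 2253 and 3224 CPM in CY pools (-0.56 ± 0.15, DESeq2 adjusted p = 0.021). Troponin T (KZS18561.1), part of the calcium switch of contraction, had 723, 677 and 719 CPM in CRY pools, against 813, 908 and 960.2 CPM in CY pools (-0.34 ± 0.10, DESeq2 adjusted p = 0.047). KZS20849.1, named as the sarcoplasmic reticulum calcium pump, which ends contraction, was called, with 1046, 1023 and 1022 CPM in CRY pools, against 1310.0, 1363 and 1645 CPM in CY pools (-0.48 ± 0.11, DESeq2 adjusted p = 0.009). Its artNOG entry names a subunit of another protein complex. Fibronectin type III genes named by the rule were lower also. KZS18339.1 had 664, 651 and 608 CPM in CRY pools, against 942, 1288 and 1418 CPM in CY pools (-0.92 ± 0.16, DESeq2 adjusted p = 3.67e-05). KZS16485.1 had 514, 545 and 456 CPM in CRY pools, against 824, 727 and 944 CPM in CY pools (-0.72 ± 0.13, DESeq2 adjusted p = 0.00018). Muscle and matrix sums were both lower in CRY, but within CY the lowest library was CY 2 for muscle and CY 1 for matrix. The share of muscle tissue in the animals was not tested. Neuron markers had 2 of 23 genes lower and 0 higher.

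Yolk genes did not differ as one set. By product name, 34 tested genes of yolk and lipoproteins had a median of -0.078, with 1 higher and 3 lower, and 0 called by DESeq2. Without CY 1 the median was 0.21, with 9 higher and 2 lower, so that this library turned the sign. The 13 genes named vitellogenin fused with superoxide dismutase, the main yolk precursors of *Daphnia*, summed to 92041, 105503 and 75221 CPM in CRY, against 140644, 64329.9 and 84908 CPM in CY. CY 1 was the highest of the 6 libraries, CY 2 the lowest, and CRY lay between them. The largest of these, KZS01801.1, had 20071, 23075 and 17263 CPM in CRY pools, against 29774, 15276 and 20039 CPM in CY pools (-0.11 ± 0.25, shares reads), and without CY 1 its log2 difference was 0.18. KZS01586.1 of the same name had 15300.1, 17751 and 14476 CPM in CRY pools, against 17921, 12638 and 10972 CPM in CY pools (0.19 ± 0.20).

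Another set of genes has no product name but an artNOG entry of vitellogenin or of the lipoprotein amino terminal region, the part of vitellogenin that binds lipid. Of 35 such tested genes, 17 were lower and 1 higher at an unadjusted p of 0.05, and the median log2 fold change was -0.50 (-0.46 without CY 1). This set was formed after its values had been seen, and 31 of all 50 tested genes with these entries span less than 1000 bases, so that many may be pieces of longer genes. Summed, the 35 had 54304, 53302 and 48542 CPM in CRY, against 79414, 56504 and 67722 CPM in CY, without overlap. KZS06241.1 carried the largest level difference of any called gene that was lower, with 12923, 10988 and 11973 CPM in CRY pools, against 18859, 17163 and 20794 CPM in CY pools (-0.66 ± 0.13, DESeq2 adjusted p = 0.00012). KZR99431.1 had 84.9, 76.2 and 84.0 CPM in CRY pools, against 123, 137 and 133 CPM in CY pools (-0.68 ± 0.088, DESeq2 adjusted p = 1.17e-06, shares reads). KZS01666.1 had 1611, 1279 and 1243 CPM in CRY pools, against 2714, 1931 and 2944 CPM in CY pools (-0.88 ± 0.19, DESeq2 adjusted p = 0.0014). In these genes, every CRY library was below every CY library. KZR97929.1 had 46.9, 25.3 and 26.6 CPM in CRY pools, against 60.2, 62.6 and 91.1 CPM in CY pools (-1.11 ± 0.28, DESeq2 adjusted p = 0.0057, shares reads). In KZR97929.1 and the genes named before it, CY 1 lay with the other CY libraries, above every CRY library. Summed over the 35 genes, however, CY 1 was the highest of all libraries, as in the yolk precursors above. The lowest CY sum, 56504 CPM, was only slightly above the highest CRY sum, 54304 CPM. One member went the other way, KZR96351.1, with 136, 118 and 139 CPM in CRY pools, against 77.0, 43.2 and 39.1 CPM in CY pools (1.30 ± 0.26, DESeq2 adjusted p = 0.00018, shares reads).

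The study singles out some genes in connection with *Cryptomonas* feeding, and they are given whatever their result. It reports vitellogenin and juvenile hormone transcripts as higher, and the fatty acid-binding protein as lower, where EPA was in the diet. It sets these beside earlier qPCR of *Cryptomonas* against a green alga at another temperature, so CY is an unlike reference diet. Of the vitellogenin accessions, KZS21011.1 had 33.3, 27.6 and 25.1 CPM in CRY pools, against 59.7, 41.3 and 72.7 CPM in CY pools (-1.02 ± 0.21, DESeq2 adjusted p = 0.0018, shares reads). Its neighbour KZS21012.1, 802 bases away, had 64.3, 58.5 and 74.9 CPM in CRY pools, against 86.8, 98.2 and 99.7 CPM in CY pools (-0.53 ± 0.12, DESeq2 adjusted p = 0.013, shares reads). KZS06496.1 had 10.4, 8.87 and 9.79 CPM in CRY pools, against 15.0, 13.4 and 18.7 CPM in CY pools (-0.69 ± 0.16, DESeq2 adjusted p = 0.02, shares reads). All of them were lower in CRY than in every CY library. Juvenile hormone-inducible protein 26 (KZS09289.1) had 8.60, 9.47 and 9.62 CPM in CRY pools, against 7.40, 12.4 and 13.9 CPM in CY pools (-0.28 ± 0.23, DESeq2 adjusted p = 0.608), and the diets overlapped. The brain-type fatty acid-binding protein KZS18357.1, a carrier of fatty acids inside cells, had 5.56, 5.14 and 5.65 CPM in CRY pools, against 5.23, 5.50 and 5.57 CPM in CY pools, a log2 difference of 0.0046 ± 0.14. Against GA, the log2 fold changes of CRY were 0.066, 0.082 and 0.12 for KZS21011.1, KZS21012.1 and KZS06496.1. They were -0.027 for KZS09289.1 and -0.16 for KZS18357.1, and every edgeR adjusted p of these was 0.43 or more. The study also lists accessions of glyceraldehyde-3-phosphate and succinate dehydrogenase as references, although the deposited annotation names some of them otherwise, among them a glycerol-3-phosphate dehydrogenase and a WD repeat protein. Of 11 such accessions looked up here, 8 were tested, none was called by either tool, and their log2 fold changes lay between -0.29 and 0.12.

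Genes of fatty acid metabolism were divided. Of 36 tested genes of fatty acid synthesis, elongation, desaturation and activation, 7 were lower (19.4%, against 7.65% of all tested genes) and 1 higher, 8 separated the diets on the lower side (22.2%, against 9.71%), the median was 0.0090, and DESeq2 called 1 (8 lower and 5 higher without CY 1). That gene is a long-chain fatty acid CoA ligase, KZS19371.1, which activates fatty acids for use, with 152, 129.7 and 145 CPM in CRY pools, against 202, 218 and 263 CPM in CY pools (-0.68 ± 0.13, DESeq2 adjusted p = 0.00072). A bubblegum-like ligase, KZS17817.1, had 556, 535 and 566 CPM in CRY pools, against 645, 880.3 and 1138 CPM in CY pools (-0.68 ± 0.20, DESeq2 adjusted p = 0.029). The elongase KZS16038.1 (elongation of very long chain fatty acids protein 6), which lengthens saturated chains in mammals, had 249.5, 206 and 246 CPM in CRY pools, against 289.7, 277 and 313 CPM in CY pools (-0.33 ± 0.11, DESeq2 adjusted p = 0.135). Of 23 fatty acid oxidation genes, 4 were higher (17.4%, against 7.91%) and 0 lower, 7 separated the diets, all higher (30.4%, against 11.8%), and the median was 0.025. The 13 fatty acid binding and uptake genes had 1 lower. In the eicosanoid pathway, which turns EPA and its relatives into signals, 3 of 22 genes were higher (13.6%, against 7.91%) and 0 lower (3 and 3 without CY 1). The gene KZS06107.1, named lipoxygenase-like, had 201, 191 and 206 CPM in CRY pools, against 137, 148 and 92.4 CPM in CY pools (0.66 ± 0.18, DESeq2 adjusted p = 0.026). Its artNOG entry is a triacylglycerol lipase, and the study states that lipoxygenase genes had not been found in *Daphnia*, so its identity is uncertain. Of 14 ecdysteroid and juvenile hormone genes, 2 were higher and 0 lower. None of the 8 globin genes was at an unadjusted p of 0.05, and their median was -0.29.

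**Figure D3:**
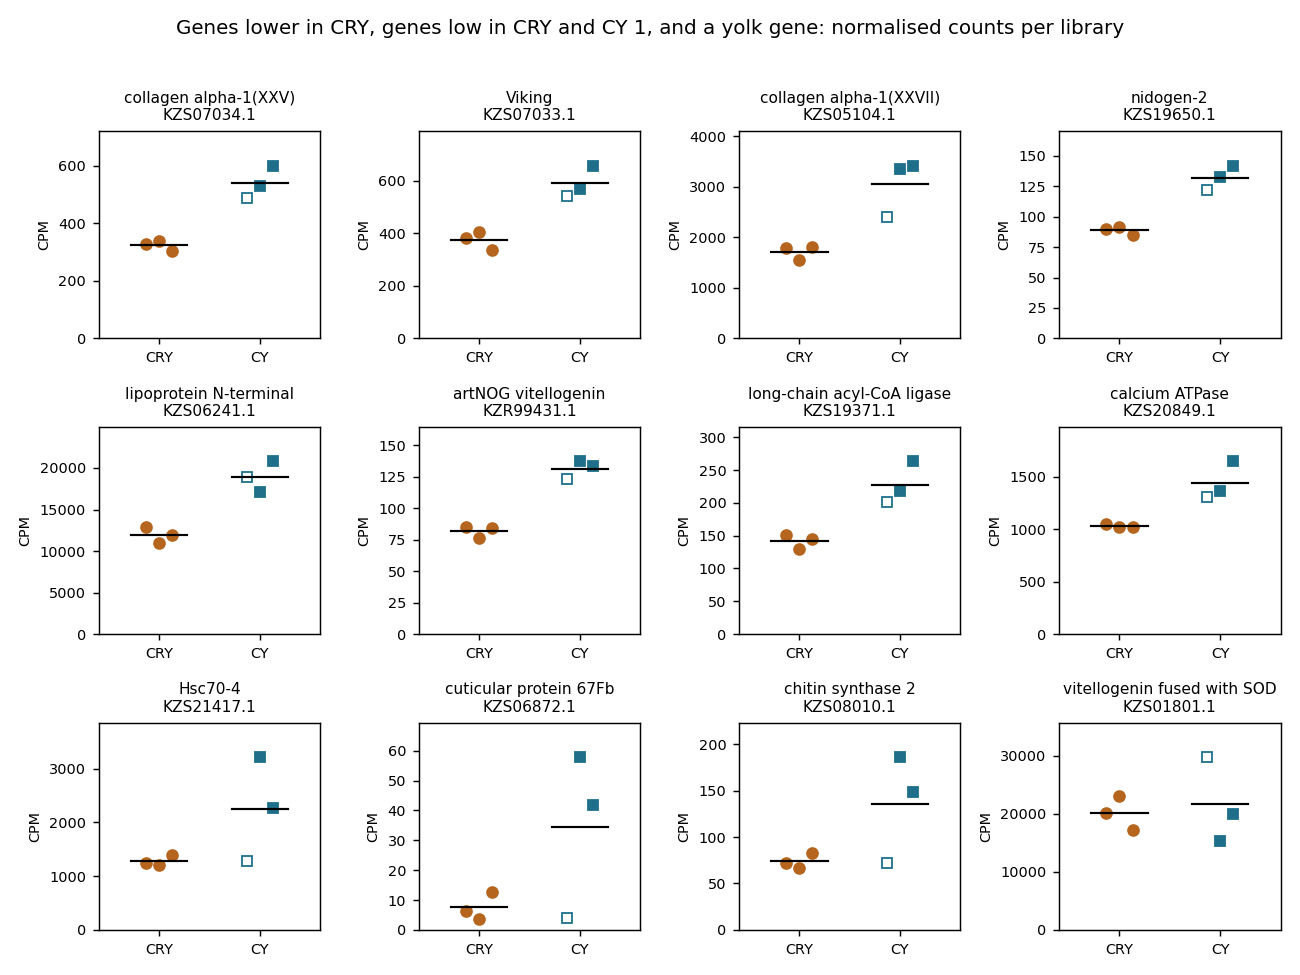
Normalised counts (CPM, vertical axis from 0) of genes lower in CRY, of genes low in CRY and CY 1 alike, and of a yolk gene, 1 panel per gene, with a point for each of 3 CRY and 3 CY libraries, CY 1 drawn as an open square and a bar at the mean of each diet. In Viking, KZS07034.1 and KZS06241.1 (10988 to 12923 CPM in CRY, 17163 to 20794 CPM in CY) CY 1 lies with CY. In the collagen KZS05104.1 CY 1 lies between CRY and the other CY libraries, and in cuticle and heat shock genes it lies with CRY.

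A further set of genes followed the split between CY 2 and CY 3 and all other libraries. Cuticle proteins, which build the outer skeleton, had 9 of 59 tested genes lower and 1 higher at an unadjusted p of 0.05, with a median log2 fold change of -0.55. Without CY 1, 30 were lower and 7 higher, and the median was -0.90. Their sums were 1919, 1526 and 2267 CPM in CRY, against 1620.2, 4286 and 2783 CPM in CY, where CY 1 was within the CRY range. Endocuticle glycoprotein SgAbd-1 (KZS10750.1) had 2.99, 1.36 and 4.57 CPM in CRY pools, against 1.60, 22.3 and 18.2 CPM in CY pools (-2.24 ± 0.88, shares reads). Cuticular protein 67Fb (KZS06872.1) had 6.45, 3.53 and 12.7 CPM in CRY pools, against 4.09, 57.9 and 41.8 CPM in CY pools (-2.19 ± 0.89, shares reads). These genes were high in CY 2 and CY 3 only. Chaperones had 6 of 56 lower and 1 higher, and 19 lower and 2 higher without CY 1. The constitutive heat shock protein 70 gene KZS21417.1, a folding helper, had 1241, 1213 and 1388 CPM in CRY pools, against 1278, 3214 and 2270.0 CPM in CY pools (-0.82 ± 0.30, DESeq2 adjusted p = 0.078). HSP83 (KZS14841.1), the fly name for HSP90, had 1055, 1117 and 1080.2 CPM in CRY pools, against 1097, 1720.4 and 1823 CPM in CY pools (-0.51 ± 0.19, DESeq2 adjusted p = 0.122). Of 17 tested opsin genes, 3 were lower and 1 higher, and 10 lower and 1 higher without CY 1. Cuticle genes are known to follow the moult, and the stage of the moult in the pools was not tested.

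With all libraries DESeq2 called 0 genes in the lists of cell division, embryo and germ line markers, ribosomal proteins and the respiratory chain. Of 90 tested genes of DNA replication and cell division, 16 were lower (17.8%, against 7.65% of all tested genes) and 4 higher (21 and 7 without CY 1), with a median of -0.064. DESeq2 without CY 1 called 12 lower and 1 higher, where it called 4.3% of all genes lower and 5.05% higher. Embryo and germ line markers, which reflect the brood pouch and the ovary, had 6 of 46 lower and 2 higher, with a median of 0.084. Without CY 1, 12 were higher and 7 lower and the median was 0.13, so this library turned the balance of the counts. Their sums were 1285, 1278 and 1272 CPM in CRY, against 1407, 1354 and 1459.6 CPM in CY, without overlap. Cytosolic ribosomal proteins were slightly higher as a body, with 67 of 73 above 0 and a median of 0.13, and 34 of them separated the diets, all higher (46.6%, against 11.8%), yet 3 were at an unadjusted p of 0.05. The respiratory chain had 0 of 61 genes at that p in either direction.

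**Figure D4:**
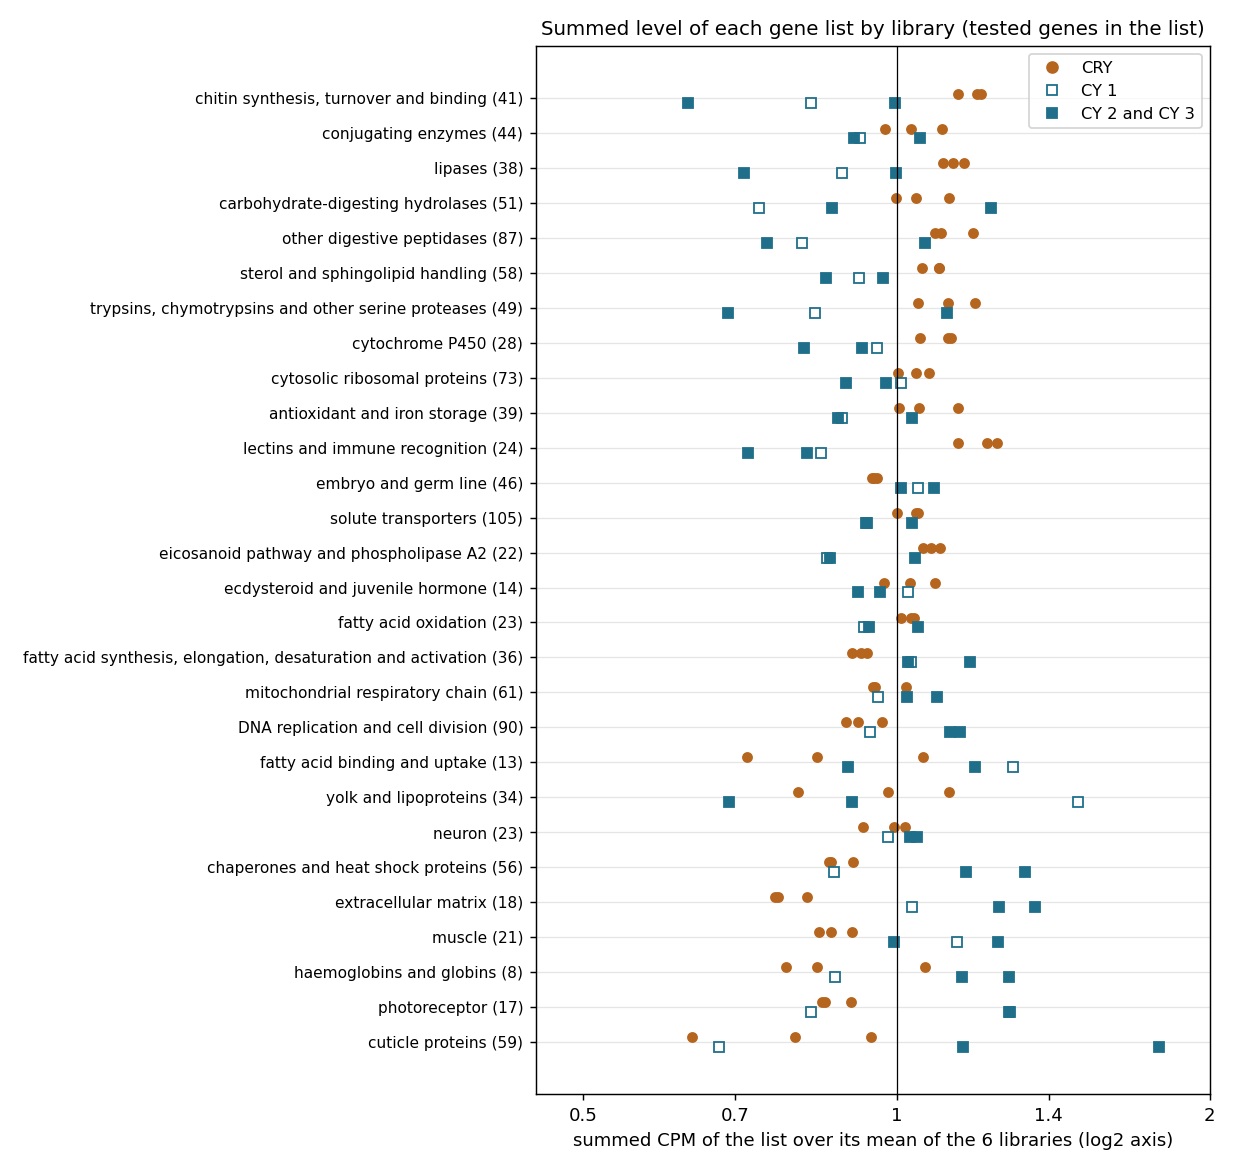
Summed normalised counts of each gene list in each library, divided by the mean of the 6 libraries (horizontal log axis, where 1 is the mean), with CRY above CY in each row and CY 1 drawn as an open square. Chitin genes lie to the right in CRY and matrix and muscle genes to the left, without overlap, while cuticle genes are high in CY 2 and CY 3 only.

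The artNOG categories take in genes that lists by product name miss. Of all tested genes, 7.91% were higher and 7.65% lower at an unadjusted p of 0.05. Without CY 1 these shares were 14.2% and 13.2%. In carbohydrate transport and metabolism (G), 80 of 447 tested genes were higher (17.9%) and 26 lower (5.82%), and DESeq2 called 16 higher and 0 lower. Extracellular structures (W) were split, with 16 of 85 higher (18.8%) and 10 lower (11.8%). DESeq2 called 4 higher and 5 lower, the lower ones being collagens. Lipid transport and metabolism (I) had 29 of 373 higher (7.77%, near the share of all tested genes) and 44 lower (11.8%). Without CY 1 these counts were 61 and 65. DESeq2 called 3 higher and 6 lower. RNA processing (A), with 11 of 359 higher (3.06%) and 44 lower (12.3%), leaned to the lower side. So did translation (J), with 8 of 374 higher (2.14%) and 40 lower (10.7%). DESeq2 called 2 lower and 1 higher in RNA processing, and 0 in either direction in translation. Secondary metabolism (Q), which holds P450 and ABC genes, had 23 of 189 higher (12.2%) and 11 lower (5.82%).

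Some of the genes that differed were compared with their levels in the other diets. These comparisons share the CRY or the CY libraries, so values are set side by side, scaled over all 15 libraries and given as means ± SD of 3 libraries. In its own edgeR fit at an adjusted p of 0.01, CRY differed from CY + EPA in 23 genes (0.162%), from GA + EPA in 224 (1.57%) and from GA in 2319 (16.2%), while CY + EPA differed from CY in 0 (0%). Such counts depend on the spread within each group and do not rank how far CRY lay from each diet. The mean r of CRY 1, 2 and 3 was 0.9521, 0.9324 and 0.957 with GA + EPA, against 0.959, 0.941 and 0.9623 with GA. Cht8 (KZS07823.1) averaged 1241 ± 59.4 CPM in CRY, 586 ± 370.1 in CY + EPA, 1648 ± 1104 in GA + EPA, 2926 ± 141 in GA and 709 ± 59.0 in CY. Its level ranged from 208 to 948 CPM within CY + EPA and from 460.5 to 2643 CPM within GA + EPA, so that these groups spread far more than CRY or CY. Against GA the log2 fold change of CRY was -1.24 ± 0.062 (edgeR adjusted p = 7.02e-06), so Cht8 was lower in CRY than in GA while higher than in CY. The ML-domain gene KZS18538.1 averaged 2239.9 ± 193 CPM in CRY, 773 ± 453 in CY + EPA, 1912 ± 1106 in GA + EPA, 2686 ± 63.7 in GA and 849 ± 449.6 in CY. Here the CY, CY + EPA and GA + EPA libraries spread widely, and those of CRY and GA did not. Viking (KZS07033.1) averaged 389 ± 34.5 CPM in CRY, 616 ± 60.2 in CY + EPA, 587 ± 26.5 in GA + EPA, 503 ± 37.2 in GA and 621 ± 65.5 in CY. The lipoprotein gene KZS06241.1 averaged 12472 ± 1014 CPM in CRY, 21156 ± 549.8 in CY + EPA, 15720.2 ± 688 in GA + EPA, 11056 ± 490.2 in GA and 19950.1 ± 1994 in CY. In viking every CRY library was below every library of the other diets, whereas in KZS06241.1 it lay near GA (log2 fold change 0.18 ± 0.072, edgeR adjusted p = 0.104) and below CY + EPA (-0.74 ± 0.10, edgeR adjusted p = 0.015). The collagen KZS05104.1 averaged 1785 ± 155 CPM in CRY, 3018 ± 279 in CY + EPA, 2348 ± 200.1 in GA + EPA, 1637 ± 164 in GA and 3219 ± 608 in CY. Like KZS06241.1, it was near its GA level in CRY. The gene named UDP-glucuronosyltransferase, KZS05562.1, averaged 47.3 ± 3.50 CPM in CRY, 17.1 ± 5.67 in CY + EPA, 9.46 ± 1.73 in GA + EPA, 5.94 ± 0.335 in GA and 23.2 ± 5.59 in CY. Its CRY level was above that of every other diet, with a log2 fold change of 2.99 ± 0.090 against GA (edgeR adjusted p = 1.12e-06) and of 1.49 ± 0.24 against CY + EPA (edgeR adjusted p = 0.028). The yolk gene KZS01586.1 averaged 16517 ± 1755 CPM in CRY, 12425 ± 1053 in CY + EPA, 4824 ± 2031 in GA + EPA, 1742 ± 482 in GA and 14572 ± 3779 in CY. Its CRY and CY libraries overlapped, while the log2 fold change of CRY over GA was 3.25 ± 0.21 (edgeR adjusted p = 2.24e-05).

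**Figure D5:**
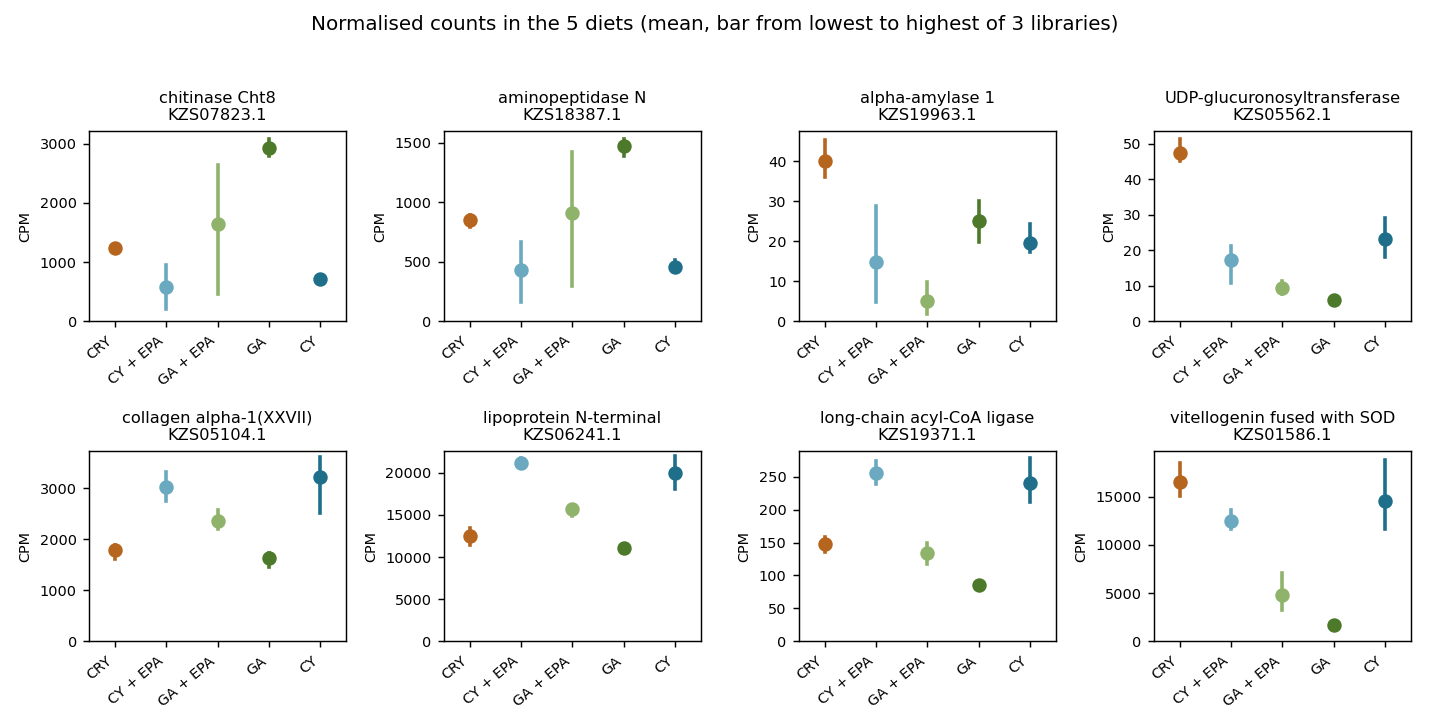
Normalised counts (CPM) of selected genes in all 15 libraries of the 5 diets, scaled together, 1 panel per gene with the vertical axis from 0, a point at the mean of 3 libraries and a bar from the lowest to the highest. For Cht8 the CRY and CY bars are short, while CY + EPA runs from 208 to 948 CPM and GA + EPA from 460.5 to 2643 CPM.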

How the data were processed

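The libraries are RNA-seq of pools of whole *D. magna*, 3 per diet. Per the labels and the study's methods, the authors trimmed reads with Trimmomatic, mapped them to the *D. magna* gene set with Bowtie2 and quantified genes with RSEM 1.2.31. The deposited expected counts are RSEM's unnormalised estimates of read pairs per gene, split where reads match several genes. The FPKM values deposited by the authors are these estimates relative to gene length and library size and were used only in alternatives. The TPM values deposited by the authors sum to one total in each library and were not used. The deposited annotation gave positions, product names and artNOG categories for 26645 of 26646 genes, and 0 identifiers matched the RefSeq gene table, so no sequences were taken from it.

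Expected counts were rounded, filtered with filterByExpr, scaled by TMM and compared by glmQLFit and glmQLFTest of edgeR 4.0.16 (R 4.3.3), with Benjamini-Hochberg adjustment over all 14164 tested genes and a level of 0.01. Between pools the biological coefficient of variation was 0.229. DESeq2 1.42.0 and limma 3.58.1 on log2(FPKM + 0.1) and log2(FPKM + 1) were alternatives, with RLE or no scaling, other filters, a level of 0.05, a block for the replicate number, a joint fit of all 15 libraries, whole counts only and each library left out. DESeq2 without CY 1 was added after the data were seen. DESeq2 gave no adjusted p for 2781 genes, which were left out of its counts. The edgeR test was checked on simulated data.

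Genes were named by this rule: among called genes whose diets did not overlap and whose mean level reached 1 CPM, the 8 highest and 8 lowest log2 fold changes with a product name, 3 and 3 without, the 5 largest CPM differences each way, up to 2 each way per list, and the genes that the study discusses in connection with *Cryptomonas* or as references. Since edgeR called 0 genes, the rule was applied to DESeq2's calls, a choice made after the values were seen. Not every gene the rule gives is printed, and other genes, chosen after their values were seen, are printed too. Lists were built by patterns in product names, 24 for pathways and 4 for tissue markers, and carry counts and medians with no set test. The comparison, the lists and their members were chosen with earlier results of these data known. Libraries of other temperatures were not analysed here.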

Additional observations from a re-analysis of the deposited data

How the results depend on the processing

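The count of called genes was 0 with edgeR and rested on the tool and on CY 1. It was 161 with DESeq2, of which 54 were at least 2-fold by DESeq2's own fold change, 100 (89 at least 2-fold) with edgeR without CY 1, and 1300 (579 at least 2-fold) with DESeq2 without CY 1. Leaving out each library in turn gave between 0 and 100 called genes, and between 0 and 89 at least 2-fold. The other scalings, filters, units and levels gave 0 with edgeR or limma, so the share of called genes that were higher has no value there. With the replicate number as a block, edgeR also called 0, with 1530 genes at an unadjusted p of 0.05. Same-numbered libraries deviated together with r of 0.043, -0.26 and 0.13, so the numbers do not pair them. Of 1496 values of the 90 genes named, 1335 kept their direction and side of the threshold and 150 passed it (60 with DESeq2, 74 with DESeq2 without CY 1 and 16 with edgeR without CY 1), while 11 changed sign. For KZS18357.1 these were -0.0317 with DESeq2 without CY 1, -0.0053 with DESeq2, -0.0048 with RLE, -0.0100 with all 15 libraries, -0.0043 with whole counts and, with each library left out, between -0.0253 and 0.0457. KZS01801.1 had 0.1792 with DESeq2 without CY 1, and with each library left out it lay between -0.3080 and 0.1849 (without CY 1). KZS16400.1 lay between -0.6209 and 0.2133 (without CY 2). List medians moved beyond the spread between replicates in 33 of 476 cases and changed sign in 24, among them the yolk list without CY 1 (0.21). The number of pools, 3 per diet, limits these calls, and the effect of depth was not tested.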
